A study of Rattus norvegicus with 9 samples.

Results

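A set of 10 liver genes of lipoprotein assembly and transport were followed: the apolipoprotein genes Apoa1, Apoa2, Apoa4, Apoa5, Apob, Apoc3 and Apoe, and Mttp, Lcat and Scarb1, which load lipid onto lipoproteins, remodel them and take them up. They were listed by name, as the main hepatic apolipoproteins and their assembly, remodelling and receptor proteins, with earlier results of these data known. All 10 were measured, out of 16292 gene symbols on the array, by 12 probe sets. RNA came from frozen liver of 9 male Sprague–Dawley rats, 3 per group and 1 array per rat. The vehicle group (rats 3, 4 and 5) is labelled as vehicle-treated, and the sources used here do not say what its rats were injected with. The CCl4 group (rats 1, 2 and 3) was injected intraperitoneally with carbon tetrachloride in olive oil for 8 weeks, which scars the liver around the toxin-metabolising hepatocytes. The CCl4+Rot group (rats 4, 5 and 6) was given CCl4 and also rottlerin, an activator of the large-conductance potassium (BK) channel, at 2.5 mg/kg from 2 weeks after the first CCl4 injection. There was no group given rottlerin without CCl4. The comparisons ask how the fibrotic liver differs from the vehicle liver in these genes and whether the rottlerin-treated liver differs from either.

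The liver builds very low density lipoprotein (VLDL) around one molecule of apolipoprotein B, onto which the microsomal triglyceride transfer protein loads lipid in the endoplasmic reticulum. High density lipoprotein (HDL) forms on apolipoproteins A-I and A-II, has its cholesterol esterified by lecithin-cholesterol acyltransferase, and unloads it to the liver through scavenger receptor B1. Smaller exchangeable apolipoproteins set how fast the triglyceride in these particles is cleared: C-III slows lipoprotein lipase, A-V favours it, and E is the ligand for hepatic uptake. Apolipoprotein A-IV is made mainly in the intestine and, in rodents, also in the liver.

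Values are deposited log2 signals, on which a difference of 1 is a doubling. Every member was called present on all 9 arrays by its brighter probe set, and 7 of the 10 lay among the 300 brightest probe sets of the table. Present calls ran from 15550 to 16849 on 8 arrays and were 12714 on the array of CCl4 rat 3, whose median log2 signal was 7.81 against 6.79 to 7.01 on the others. The 300 brightest probe sets read 13.88 at their median there, and 14.20 to 14.37 on the remaining arrays. The mean of 15 hepatocyte markers (albumin, transthyretin, transferrin and others), all called present on all arrays, was 14.39 there and 14.79 to 15.00 elsewhere. The members' CCl4 minus vehicle changes are therefore also given without CCl4 rat 3 and relative to the hepatocyte markers, and the cause of that array's lower bright signals was not tested. In whole liver, fewer cells of a type and less RNA per cell cannot be told apart.

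**Figure D1:**
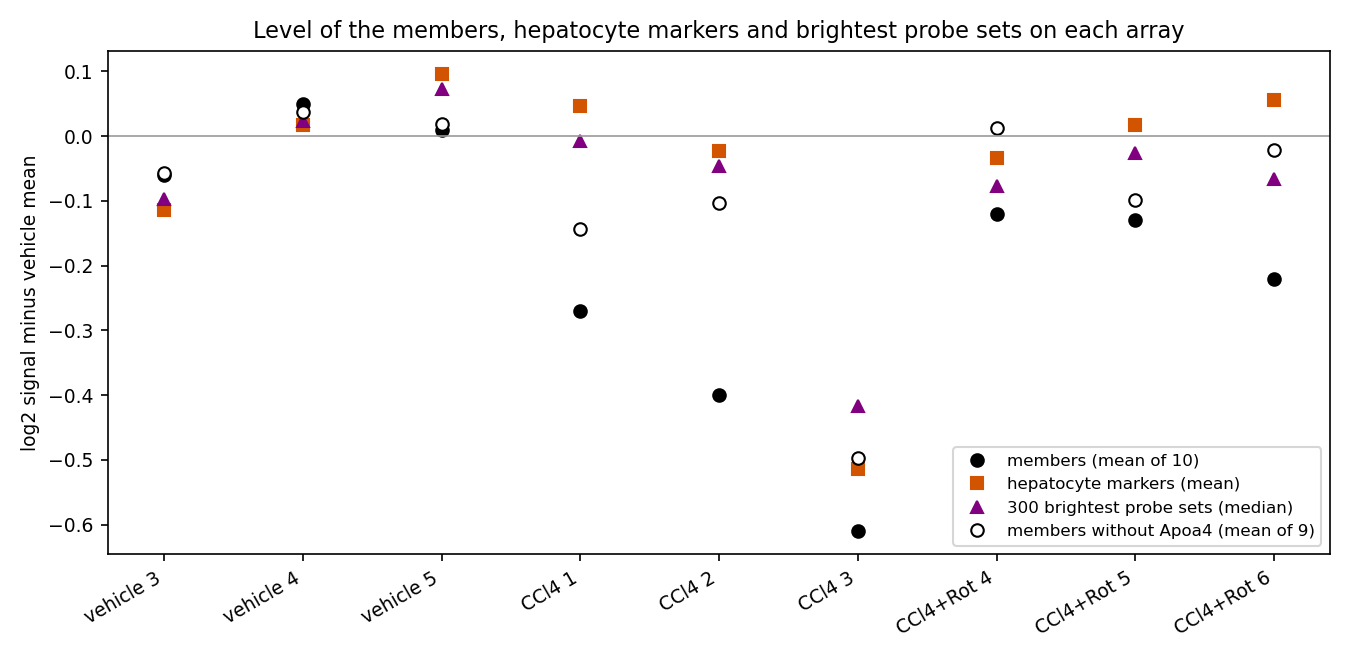
Mean log2 signal of the 10 members, of the 9 members other than Apoa4 and of 15 hepatocyte markers, and the median of the 300 brightest probe sets, on each of the 9 arrays, as the difference from the vehicle mean of the same quantity (vertical axis, log2). On the array of CCl4 rat 3 all 4 quantities were at their lowest, while on the arrays of CCl4 rats 1 and 2 only the mean that includes Apoa4 was more than 0.2 below the vehicle mean.

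Apoa4 was the member that differed most between fibrotic and vehicle liver. Its log2 signal was 14.15, 14.39 and 14.21 in vehicle rats 3, 4 and 5, 12.90, 11.20 and 12.67 in CCl4 rats 1, 2 and 3, and 12.97, 13.85 and 12.27 in CCl4+Rot rats 4, 5 and 6. All 6 rats given CCl4 lay below every vehicle rat, and CCl4 rat 2 was the lowest of the 9. The group mean was 14.25 ± 0.12 for vehicle, 12.26 ± 0.92 for CCl4 and 13.03 ± 0.79 for CCl4+Rot (SD, n = 3 each). The mean was 3.98-fold lower in CCl4 than in vehicle liver, a log2 change of -1.99 (SE 0.53), with a limma p of 0.251 after Benjamini-Hochberg adjustment over 31042 probe sets, so it did not pass. Under limma with an intensity trend and robust variances the adjusted p was 0.118. The log2 change ran from -2.32 to -1.47 with each array left out in turn, and was -1.47 without CCl4 rat 2 and -2.20 without CCl4 rat 3. Relative to the hepatocyte markers it was -1.83 (limma, Benjamini-Hochberg adjusted p = 0.395). The Apoa4 spread lay in the groups given CCl4, since its vehicle SD of 0.12 was below those of Apob (0.204) and Scarb1 (0.265). Pooled over the groups, Apoa4 had the largest SD of the members, 0.71 on the log2 scale. It was larger than that of 98.0% of the 11231 probe sets with a present call on every array. The pooled SDs of the other 9 members ran from 0.16 (Apob) to 0.29 (Scarb1), and the median over the members was 0.20, beside 0.22 over those probe sets.

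**Figure D2:**
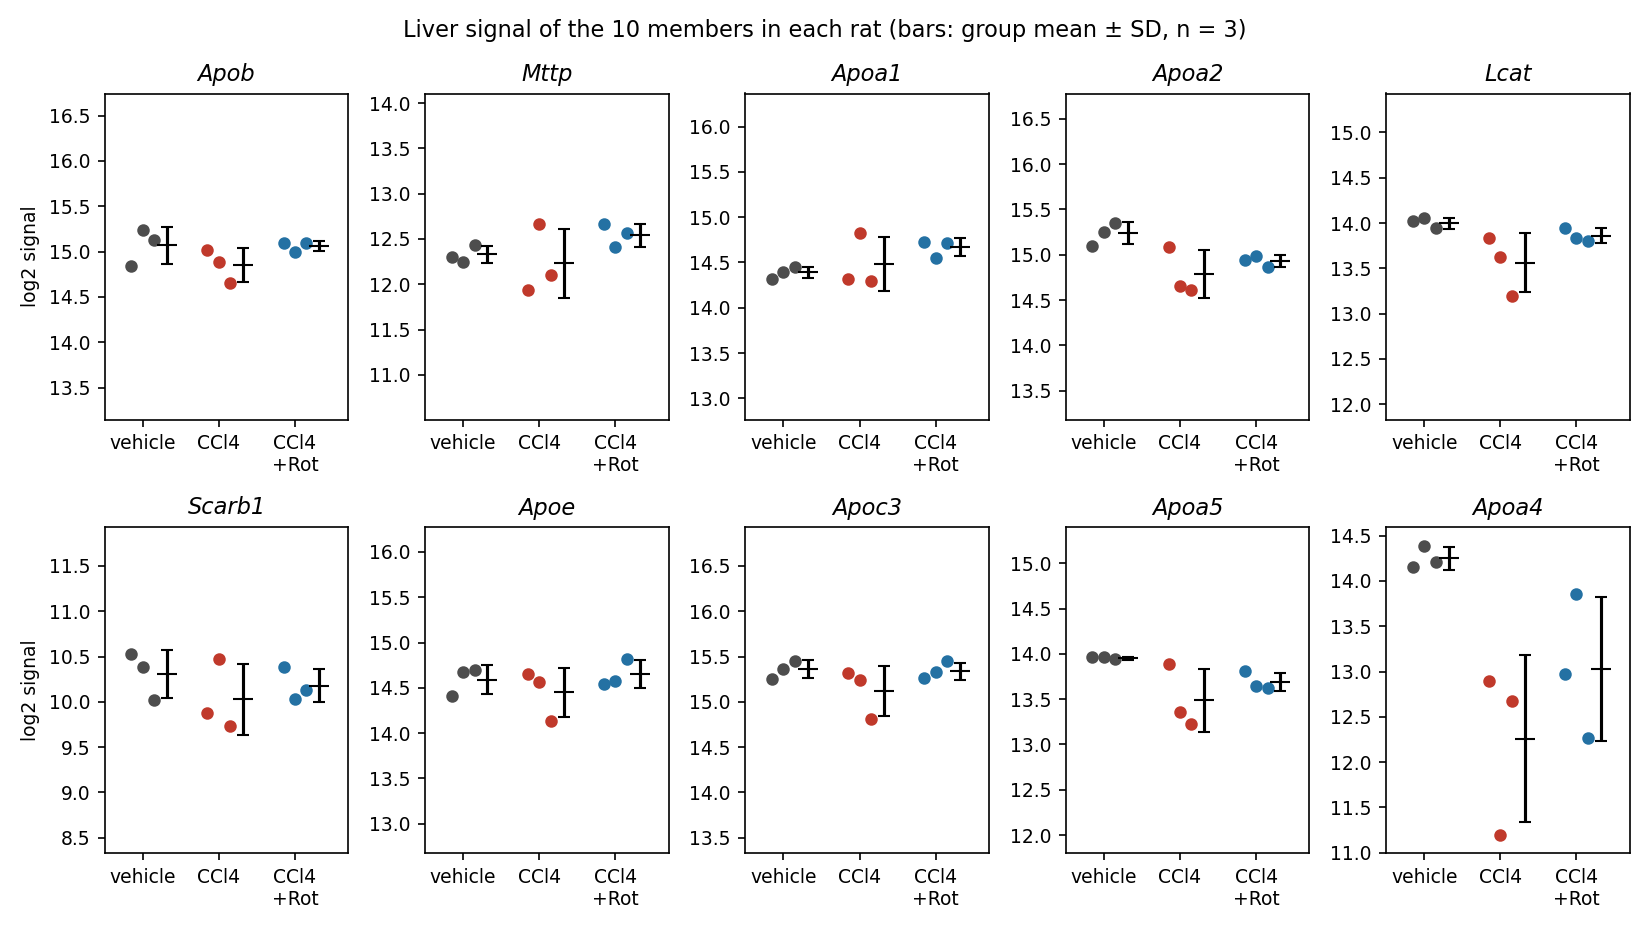
Log2 signal of each member (panels) in each rat (points) by group, with the group mean and SD beside the points (n = 3). Every panel spans the same log2 range, centred on that gene, so the spread and group differences can be compared between panels and the levels cannot. Apoa4 is the only panel in which the CCl4 mean (12.26) lies more than 1 log2 unit below the vehicle mean (14.25).

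Promoter windows show the sequence next to which these readings arise. RefSeq's table for the GRCr8 build, with 250 bases before and 50 after a start site, held windows for 4 of the 10 members: Apoa4, Apoa5, Apoe and Lcat. The windows of Apoa4, Apoa5 and Lcat are shown because in all 3 genes every CCl4 rat read lower than every vehicle rat. Capitals mark any match, on either strand, to AAAGTCCA (a core recognised by the liver receptor HNF4 alpha), AGGTCA (the nuclear receptor half-site), CACGTG (the E-box of bHLH factors) or TATAAA (the TATA box). These motifs were picked after the windows had been read, none of the matches overlap, and a match is a description of the letters only.
Apoa4, chr8:55435529-55435828, plus strand: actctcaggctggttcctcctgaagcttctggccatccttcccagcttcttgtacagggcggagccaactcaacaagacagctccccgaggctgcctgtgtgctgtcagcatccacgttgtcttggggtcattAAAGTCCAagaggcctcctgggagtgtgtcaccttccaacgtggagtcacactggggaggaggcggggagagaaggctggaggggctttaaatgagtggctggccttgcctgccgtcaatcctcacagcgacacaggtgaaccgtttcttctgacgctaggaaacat
Apoa5, chr8:55457621-55457920, plus strand: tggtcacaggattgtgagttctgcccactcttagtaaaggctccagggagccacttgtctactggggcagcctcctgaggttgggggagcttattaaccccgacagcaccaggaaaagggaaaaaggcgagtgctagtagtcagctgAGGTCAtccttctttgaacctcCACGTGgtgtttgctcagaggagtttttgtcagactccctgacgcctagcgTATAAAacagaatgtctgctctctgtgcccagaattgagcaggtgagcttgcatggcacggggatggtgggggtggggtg
Lcat, chr19:50748015-50748314, minus strand: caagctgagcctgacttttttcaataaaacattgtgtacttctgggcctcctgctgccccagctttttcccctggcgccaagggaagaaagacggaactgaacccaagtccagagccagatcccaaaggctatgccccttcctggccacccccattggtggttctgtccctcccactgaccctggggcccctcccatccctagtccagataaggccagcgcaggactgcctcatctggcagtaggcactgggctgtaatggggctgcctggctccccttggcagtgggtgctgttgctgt
AAAGTCCA begins at base 134 of the Apoa4 window and was found in 1.37% of all 33469 windows of the table. In the Apoa5 window AGGTCA begins at base 148, CACGTG at base 170 and TATAAA at base 221. These 3 were found in 16.2%, 6.42% and 14.2% of all windows. The Lcat window held no match to the 4 motifs.

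Across the set, 9 members were lower and 1 (Apoa1) higher in CCl4 than in vehicle liver, with a median log2 change of -0.26. By limma with Benjamini-Hochberg adjustment and a 1.5-fold threshold, 0 of the 10 were called, and 0.0% of all probe sets were called. With trend and robust variances 0 of the 10 were called, beside 1.12% of all probe sets. Before adjustment, Apoa4 and Apoa2 had a p below 0.05, which is 2 of 10 beside 12.4% of the whole table. CCl4 and vehicle rats did not overlap for 4 members (Apoa2, Apoa4, Apoa5 and Lcat, all lower in CCl4), beside 18.3% of all probe sets and 25.4% of those present on every array. Apoa4 was the 1 member that differed by at least 1.5-fold, beside 12.8% of the probe sets present on every array. The 15 hepatocyte markers were all lower, with a median of -0.15, and the 300 brightest probe sets had a median of -0.19. Without CCl4 rat 3 the median was -0.13 for the members, 0.03 for the hepatocyte markers and -0.06 for the brightest probe sets. Relative to the hepatocyte markers the members' median was -0.10, with 7 of 10 lower.

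The VLDL core genes differed little. Apob, which encodes the structural protein of VLDL and low density lipoprotein, read 14.84, 15.24 and 15.13 in vehicle rats, 15.02, 14.89 and 14.65 in CCl4 rats and 15.09, 15.00 and 15.09 in CCl4+Rot rats. The 3 groups overlapped. Its CCl4 minus vehicle log2 change was -0.22 (SE 0.18, limma adjusted p = 0.629), -0.12 without CCl4 rat 3 and -0.06 relative to the hepatocyte markers. A second Apob probe set was called present on 0 arrays. Mttp, the lipid-loading subunit of the transfer complex, read 12.30, 12.25 and 12.43 in vehicle rats, 11.94, 12.67 and 12.10 in CCl4 rats and 12.66, 12.41 and 12.56 in CCl4+Rot rats. CCl4 rat 2 was the highest and CCl4 rat 1 the lowest of all 9 in Mttp, and the group means differed by -0.09 (SE 0.22, limma adjusted p = 0.878), by -0.02 without CCl4 rat 3 and by 0.07 relative to the hepatocyte markers.

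Changes of the HDL genes from vehicle to CCl4 ran from 0.09 (Apoa1) to -0.45 (Apoa2 and Lcat), and their differences from each other were not tested. Apoa1, the main HDL protein and an activator of cholesterol esterification, read 14.32, 14.40 and 14.45 in vehicle rats, 14.32, 14.83 and 14.30 in CCl4 rats and 14.73, 14.55 and 14.72 in CCl4+Rot rats. In the CCl4 group rat 2 stood above both others, as it did in Mttp and Scarb1, and the change from vehicle was 0.09 (SE 0.19, limma adjusted p = 0.857), 0.18 without CCl4 rat 3, -0.08 without CCl4 rat 2 and 0.26 relative to the hepatocyte markers. Apoa2, the other HDL structural protein, read 15.10, 15.25 and 15.35 in vehicle rats, 15.09, 14.66 and 14.61 in CCl4 rats and 14.94, 14.99 and 14.86 in CCl4+Rot rats. CCl4 rat 1 lay just under the lowest vehicle rat and the other CCl4 rats further down. The Apoa2 change from vehicle to CCl4 was -0.45 (SE 0.18, limma, Benjamini-Hochberg adjusted p = 0.381), -0.36 without CCl4 rat 3 and -0.29 relative to the hepatocyte markers. Lcat, the plasma enzyme that esterifies HDL cholesterol, read 14.02, 14.06 and 13.94 in vehicle rats, 13.84, 13.63 and 13.20 in CCl4 rats and 13.95, 13.83 and 13.80 in CCl4+Rot rats. CCl4 rat 3 was the lowest of the 9 in Lcat. The Lcat change was -0.45 (SE 0.19, limma, Benjamini-Hochberg adjusted p = 0.409), -0.27 without that rat and -0.29 relative to the hepatocyte markers. Scarb1, the HDL receptor, read 10.53, 10.38 and 10.02 in vehicle rats, 9.88, 10.47 and 9.73 in CCl4 rats and 10.38, 10.03 and 10.13 in CCl4+Rot rats. The groups overlapped, and the change from vehicle to CCl4 was -0.28 (SE 0.25, limma adjusted p = 0.659) by this probe set and 0.07 (SE 0.30) by a second one called present on 8 arrays. By the first probe set it was -0.14 without CCl4 rat 3, -0.12 relative to the hepatocyte markers and between -0.51 and -0.14 over all arrays left out in turn, and by the second it was 0.19 and 0.23.

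Of the genes for exchangeable apolipoproteins other than Apoa4, Apoa5 held the tightest vehicle values. Apoa5, whose product favours triglyceride clearance, read 13.96, 13.97 and 13.94 in vehicle rats, 13.89, 13.36 and 13.23 in CCl4 rats and 13.81, 13.64 and 13.62 in CCl4+Rot rats. All 6 rats given CCl4 were below the vehicle range, CCl4 rat 1 only slightly. The change from vehicle to CCl4 was -0.46 (SE 0.20, limma, Benjamini-Hochberg adjusted p = 0.410), -0.33 without CCl4 rat 3 and -0.30 relative to the hepatocyte markers. Without CCl4 rat 1, limma with trend and robust variances called Apoa2 (log2 change -0.60, Benjamini-Hochberg adjusted p = 0.0244), Apoa5 (-0.66, 0.0176) and Lcat (-0.59, 0.0494), and in that fit 2.72% of all probe sets were called. Leaving out any other array in that fit called none of the 10 members. Apoc3, the lipoprotein lipase inhibitor, read 15.25, 15.36 and 15.45 in vehicle rats, 15.32, 15.24 and 14.81 in CCl4 rats and 15.26, 15.33 and 15.45 in CCl4+Rot rats. Apoe, the uptake ligand, read 14.41, 14.67 and 14.70 in vehicle rats, 14.65, 14.56 and 14.13 in CCl4 rats and 14.54, 14.58 and 14.82 in CCl4+Rot rats. In both genes CCl4 rat 3 was the lowest of the 9, and the other CCl4 rats lay inside the vehicle range or, for rat 2 in Apoc3, just at its lower edge. Their changes from vehicle to CCl4 were -0.23 (SE 0.19) for Apoc3 and -0.15 (SE 0.20) for Apoe, -0.08 and 0.01 without that rat, and -0.07 and 0.02 relative to the hepatocyte markers.

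Rottlerin-treated livers read higher than CCl4 livers in all 10 members, by a median log2 difference of 0.21, and no member separated the groups. By limma 0 of the 10 were called and 0 reached a p below 0.05 before adjustment, beside 0.00322% and 6.63% of all probe sets. With trend and robust variances 0 were called, beside 0.00322%. The groups overlapped in all 10 members, where 11.6% of all probe sets and 12.9% of those present on every array did not overlap. The largest difference was again in Apoa4, at 0.78 (SE 0.53, 1.71-fold, limma, Benjamini-Hochberg adjusted p = 0.777), and it was the only member at least 1.5-fold apart, beside 5.45% of the probe sets present on every array. CCl4+Rot rat 5 lay between the CCl4 and vehicle ranges, rat 4 just above the highest CCl4 rat and rat 6 inside the CCl4 range. Leaving out arrays in turn moved the Apoa4 difference between 0.25 (without CCl4 rat 2) and 1.16 (without CCl4+Rot rat 6). The other 9 differences ran from 0.14 (Apoa2) to 0.31 (Mttp). The second Scarb1 probe set gave -0.40 (SE 0.30), against 0.15 for the first. The 15 hepatocyte markers were also all higher, with a median of 0.18, and the 300 brightest probe sets had a median of 0.15. Without CCl4 rat 3 the median was 0.08 for the members and 0.01 for both of the others. Relative to the hepatocyte markers the members' median was 0.03 and 2 of 10 (Apoa2 and Scarb1) were lower, while Apoa4 kept a difference of 0.60 (limma adjusted p = 0.789).

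**Figure D3:**
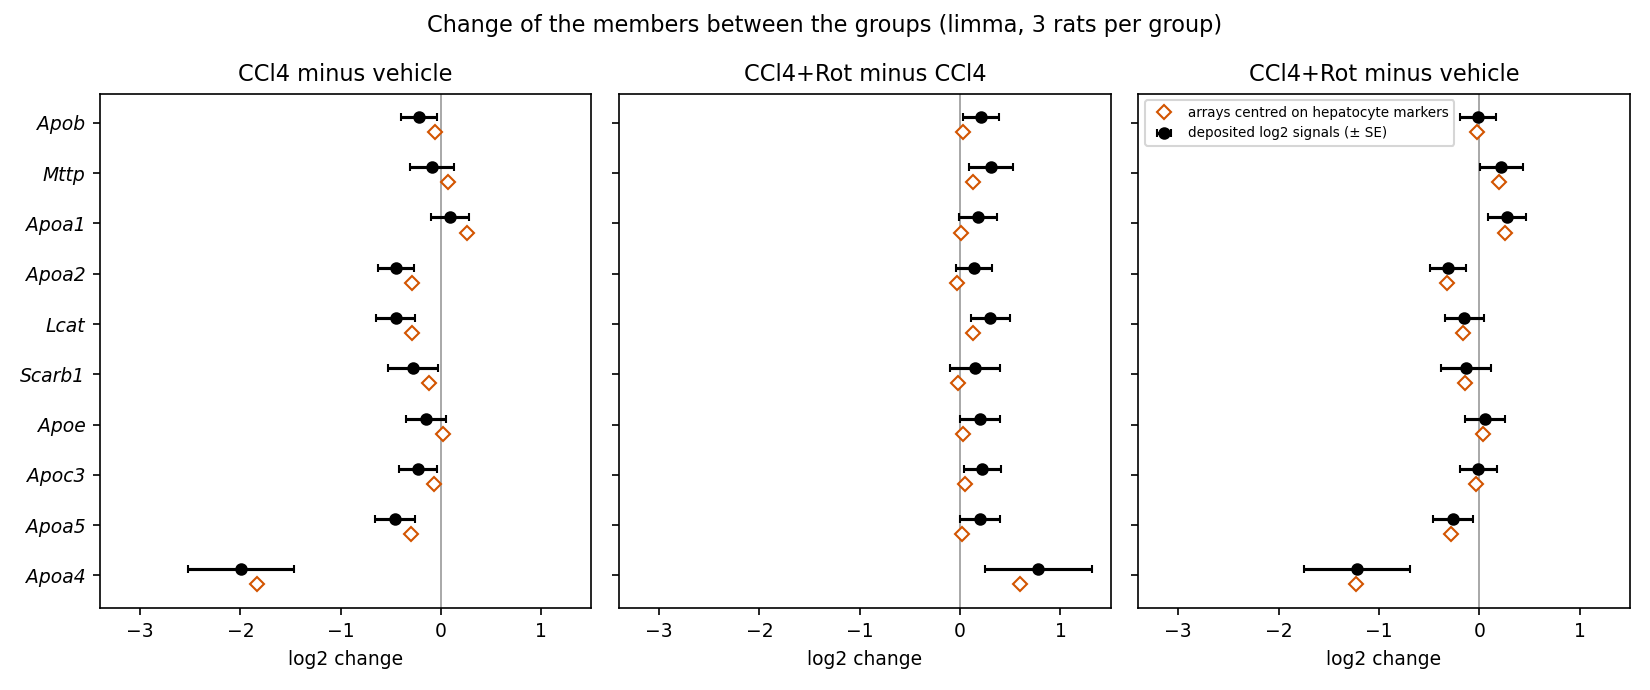
Log2 change of each member between the groups named above each panel (horizontal axis), as deposited with the limma SE (filled circles, 3 rats per group) and after centring each array on the hepatocyte markers (open diamonds). The shared shift toward lower values in CCl4 and higher values in CCl4+Rot livers shrank after centring (median -0.26 to -0.10 and 0.21 to 0.03), and Apoa4 stayed at -1.83 in CCl4 minus vehicle.

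Of the 7 members that read lower in rottlerin-treated than in vehicle livers, Apoa4, Apoa2 and Apoa5 had the largest differences. None of the 7 had an unadjusted p below 0.05 by limma without trend and robust variances. With them the unadjusted limma p was 0.0420 for Apoa4 and 0.0466 for Apoa2, and the adjusted p was 0.473 and 0.496. The comparisons of CCl4+Rot and of CCl4 with vehicle share the vehicle rats, so the values are given side by side. Apoa4 was 2.32-fold lower than in vehicle, a log2 change of -1.22 (SE 0.53, limma, Benjamini-Hochberg adjusted p = 0.608), against -1.99 in CCl4 without rottlerin. The changes were -0.31 (SE 0.18) for Apoa2 and -0.26 (SE 0.20) for Apoa5, against -0.45 and -0.46. In these 3 genes every CCl4+Rot rat read lower than every vehicle rat. Apoa1 was the 1 member with every CCl4+Rot rat above every vehicle rat, with a change of 0.28 (SE 0.19, limma adjusted p = 0.815). That makes 4 of 10 members without overlap, beside 21.1% of all probe sets and 29.6% of those present on every array. Lcat at -0.15, Scarb1 at -0.13, Apob and Apoc3 at -0.01, Apoe at 0.06 and Mttp at 0.22 overlapped with vehicle, and the members' median was -0.07. By limma 0 of the 10 were called (0.0258% of all probe sets) and 0 reached a p below 0.05 before adjustment (8.31%). With trend and robust variances 0 were called, beside 0.776%. Apoa4 alone reached 1.5-fold, as did 9.44% of the probe sets present on every array. With 3 rats against 3, an exact two-sided permutation test cannot give a p below 0.1, so no single member could pass such a test.

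Apoa4 lies in a row of apolipoprotein genes, and its neighbours did not show changes of its size. RefSeq lists Apoa1, Apoc3, Apoa4 and Apoa5 next to each other on chromosome 8, and the deposited table, whose genome build is not named, places their probe sets at 49151162 to 49152947 (Apoa1), 49155283 to 49156945 (Apoc3), 49163054 to 49165338 (Apoa4) and 49185439 to 49187677 (Apoa5) of that chromosome. In that order the CCl4 minus vehicle log2 changes were 0.09, -0.23, -1.99 and -0.46, and the CCl4+Rot minus CCl4 differences were 0.18, 0.22, 0.78 and 0.20. Apoe lies in a second row, after Apoc2, Apoc4 and Apoc1 on chromosome 1. Apoc2, which encodes the activator of lipoprotein lipase, read 14.59, 14.76 and 14.85 in vehicle rats, 14.09, 14.13 and 13.94 in CCl4 rats and 14.25, 14.37 and 14.06 in CCl4+Rot rats, so that all 6 rats given CCl4 lay below the vehicle range. Its change from vehicle to CCl4 was -0.68 (SE 0.16, limma, Benjamini-Hochberg adjusted p = 0.231), with an adjusted p of 0.0282 under trend and robust variances, where it was called. It was -0.63 without CCl4 rat 3 and -0.52 relative to the hepatocyte markers, and adjusted p values of the trend and robust fit ran from 0.0242 (without CCl4 rat 1) to 0.151 (without vehicle rat 4) with each array left out. For Apoc4 the difference was -0.45 (SE 0.23) for CCl4 and -0.72 (SE 0.23) for CCl4+Rot against vehicle, and Apoc1, by a probe set that also names a second gene, stood at -0.25 and -0.12. At the end of that row Apoe stood at -0.15 and 0.06.

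**Figure D4:**
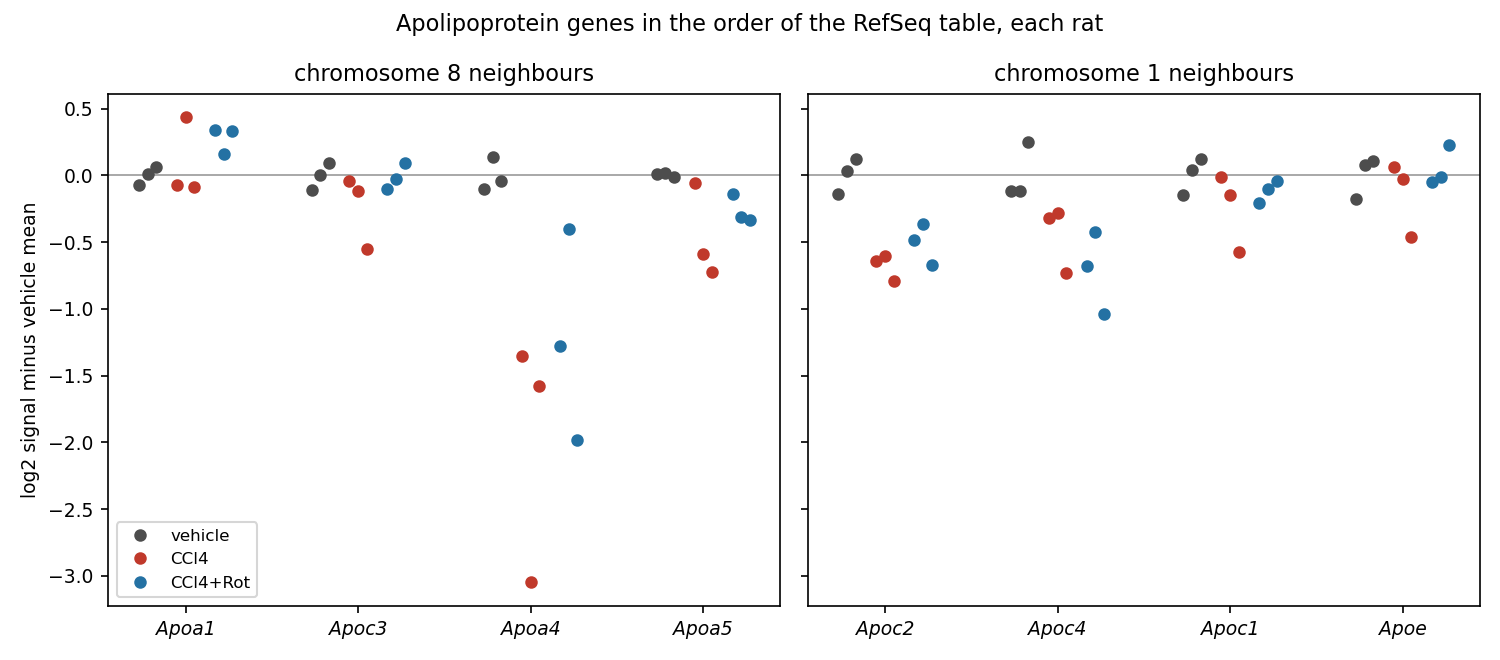
Log2 signal of each rat minus the vehicle mean of that gene (vertical axis) for the apolipoprotein genes of chromosome 8 (left) and chromosome 1 (right), in the order of the RefSeq table. Among these 8 genes Apoa4 had the lowest values in rats given CCl4 (11.20 against a vehicle mean of 14.25 in CCl4 rat 2), and in Apoa4, Apoa5, Apoc2 and Apoc4 the vehicle points lie above all others.

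Genes of lipoprotein metabolism beyond the members were read from 5 lists, 83 genes of which 78 were measured. In CCl4 against vehicle liver 3 had an unadjusted limma p below 0.05 upward and 12 downward, beside 12.4% of all probe sets and 14.0% of those present on every array. By limma 0 were called, and limma with trend and robust variances called 4, all lower, beside 1.12% of all probe sets. These 4 were Apoc2, Apon, Lipc and Enpp2. Apon, a lipoprotein-bound protein, differed by -1.01 (SE 0.20, limma with trend and robust variances, Benjamini-Hochberg adjusted p = 0.0113). Lipc, the hepatic lipase that trims HDL and VLDL remnants, differed by -0.74 (SE 0.18, trend and robust adjusted p = 0.0282), and Enpp2, the secreted lysophospholipase D autotaxin, by -0.88 (SE 0.18, trend and robust adjusted p = 0.0160). All 4 adjusted p values passed 0.05 under trend and robust variances, and with arrays left out in turn the highest, all without vehicle rat 4, were 0.0794 for Apon, 0.145 for Lipc and 0.102 for Enpp2. The lipase brake Angptl4 stood at -0.92 (SE 0.36) and the hepatic lipid hydrolase Ces1d at -0.87 (SE 0.27), neither called in any of these fits to all arrays. Without overlap between CCl4 and vehicle rats, 6 of the 78 were higher and 14 lower in CCl4, beside 18.3% of all probe sets and 25.4% of those present on every array. Of the 6, Lpl, Apobec1 and Cd36 met the naming rule given below. Lpl, lipoprotein lipase, stood at 1.54 (SE 0.48, limma, Benjamini-Hochberg adjusted p = 0.289). Apobec1, the Apob messenger editing enzyme, stood at 1.00 (SE 0.31, limma adjusted p = 0.298). Cd36, a fatty acid and lipoprotein scavenger receptor read by a probe set that names several genes, stood at 1.15 (SE 0.59). Fitted to all arrays, limma with trend and robust variances called none of Lpl, Apobec1, Cd36, Angptl4 and Ces1d. With an array left out in that fit, the lowest adjusted p was 0.0122 for Lpl and 0.0310 for Apobec1 (both without vehicle rat 3), and 0.0442 for Ces1d (without CCl4 rat 3). These are the lowest values over such refits, which called between 29 and 843 of all probe sets. The refit without vehicle rat 3 called 211 and that without CCl4 rat 3 called 313.

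By list, the counts with an unadjusted p below 0.05 upward and downward in CCl4 minus vehicle were 0 and 2 of 12 other apolipoproteins, 1 and 3 of 18 assembly and secretion genes, 0 and 0 of 13 receptors, 2 and 5 of 16 lipase, transfer and remodelling genes, and 0 and 2 of 19 transcriptional regulators. Over all 31042 probe sets the same counts were 2683 and 1154. The medians of these lists were -0.27, 0.02, 0.28, -0.12 and -0.14, beside 0.18 over all probe sets and -0.01 over those present on every array. Without CCl4 rat 3 the list medians were -0.18, 0.10, -0.05, -0.19 and -0.07, beside 0.01 over all probe sets, so the receptor median changed sign. In CCl4+Rot against CCl4 liver 3 of the 78 had such a p upward and 4 downward, beside 6.63% of all probe sets. By limma, and by limma with trend and robust variances, 0 were called, beside 0.00322% of all probe sets in each fit. The partner subunits of the sterol exporter, Abcg5 and Abcg8, had the largest differences. Abcg5 read 8.99, 9.46 and 8.20 in vehicle rats, 10.67, 9.34 and 9.42 in CCl4 rats and 7.66, 6.65 and 7.81 in CCl4+Rot rats, so the CCl4+Rot rats lay below all others. The median over all probe sets on the CCl4+Rot arrays was 6.90 to 7.00, so these low readings are of limited precision. The Abcg5 difference from CCl4 was -2.44 (SE 0.51, limma, Benjamini-Hochberg adjusted p = 0.608). Abcg8, called present on 4 arrays, differed by -2.17 (SE 0.62, limma adjusted p = 0.689), with CCl4 rats at 9.26, 6.54 and 8.29. Cebpa, a transcription factor of hepatocyte differentiation, read 12.37, 12.08 and 12.28 in vehicle rats, 11.45, 11.26 and 11.92 in CCl4 rats and 12.62, 12.47 and 12.49 in CCl4+Rot rats. The CCl4+Rot rats were the highest and the CCl4 rats the lowest, with a difference of 0.98 (SE 0.21, limma, Benjamini-Hochberg adjusted p = 0.608) between them. With trend and robust variances the adjusted p for Cebpa was 0.0980, so it was not called. In that fit without CCl4 rat 3 it was 0.0154, and 11 of all probe sets were called there. Apol9a at 0.95, Bmp1 at 0.67 and the Apob editing cofactor A1cf at -0.60 also separated the 2 groups. Of the 78, 6 were higher and 4 lower without overlap, beside 11.6% of all probe sets and 12.9% of those present on every array. In CCl4+Rot against vehicle liver 4 of the 78 had an unadjusted p below 0.05 upward and 13 downward, beside 8.31% of all probe sets. Neither fit called any of the 78, beside 0.0258% of all probe sets by limma and 0.776% with trend and robust variances.

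**Figure D5:**
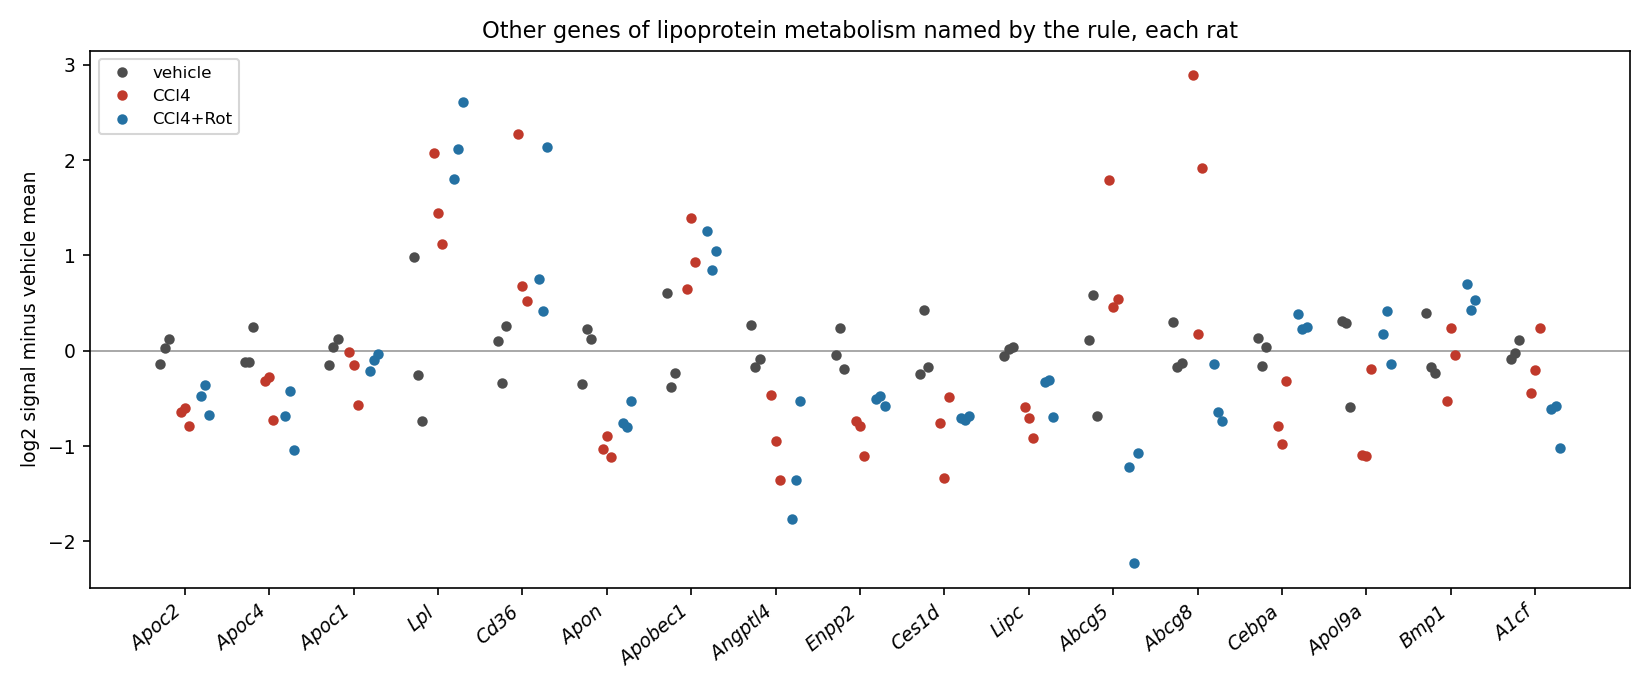
Log2 signal of each rat minus the vehicle mean of that gene (vertical axis) for Apoc2, Apoc4, Apoc1 and the 14 other genes of lipoprotein metabolism that met the naming rule. Lpl lies up to 11.90 in CCl4+Rot rats against a vehicle mean of 9.29, and Abcg5 separates CCl4+Rot rats (6.65 to 7.81) from both other groups. The median over all probe sets on the CCl4+Rot arrays is 6.90 to 7.00.

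Markers of other cells moved with the groups, and their part in the members' values was not tested. Of 12 measured macrophage markers 8 read higher and 4 lower in CCl4 than in vehicle liver. Among them 5 were higher with an unadjusted limma p below 0.05, and 12.4% of all probe sets had such a p in either direction. The summed linear signal of the 12 was 26500 to 36200 in vehicle rats, 37990 to 48490 in CCl4 rats and 44030 to 52010 in CCl4+Rot rats. Of 10 myofibroblast and stellate cell markers 6 were higher by the same measure, with sums of 9688 to 15500, 20020 to 36550 and 30660 to 38750. The hepatocyte marker sum was 455300 to 528600 in vehicle rats, 347600 to 506100 in CCl4 rats and 478600 to 513700 in CCl4+Rot rats. None of 8 endothelial markers had such a p in CCl4 against vehicle liver, and their sums were 13590 to 14570, 10530 to 14310 and 13890 to 15340. Of 6 cholangiocyte markers, of which 2 were called present on all arrays, 1 was higher by that measure, with sums of 1070 to 1356, 2735 to 5556 and 1330 to 2595. By sign 4 of the 6 were higher and 2 lower, 1 of them by at least 1.5-fold, and such a sum weighs the brightest markers most. The small intestine, the main site of Apoa4 expression, was checked with 7 measured markers, of which 1 was called present on all arrays, and none had an unadjusted p below 0.05 in CCl4 against vehicle liver. Their sums were 763 to 1059 in vehicle rats, 759 to 2507 in CCl4 rats and 1190 to 2356 in CCl4+Rot rats. All 7 read higher in CCl4 than in vehicle liver, as did 19614 of all 31042 probe sets, and the sums overlapped only through CCl4 rat 1 (759, against 2507 and 2424 in rats 2 and 3). Without CCl4 rat 3, 1 of the 7 read lower, with an unadjusted limma p below 0.05. Their median log2 change was then 0.38, beside 0.01 over all probe sets. Every CCl4+Rot sum lay above the vehicle range, and 1 of the 7 was higher there with an unadjusted limma p below 0.05. The part of intestinal RNA in the Apoa4 values was not tested.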

How the data were processed

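Total RNA from frozen rat liver was labelled as biotin cRNA with a 3' IVT kit and hybridised to Affymetrix whole-genome rat arrays. For each array the authors deposited the log2 signals of 31099 probe sets, every one with a present, marginal or absent call, for 9 arrays in all, and the submitters' processing notes name MAS5 and affy without versions. The antilogs share a trimmed mean of 500.0 on every array (2% trimmed at each end), so the arrays had been scaled to a common mean, and a bright gene can read lower where dim probe sets read higher. The genome build behind the table is not given in the sources used here.

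The deposited log2 values were used as they stand. The 57 control probe sets were left out and the other 31042 fitted with limma 3.58.1 in R 4.3.3 (lmFit, eBayes; 3 group means, no covariate), and Benjamini-Hochberg adjustment covered all of them. Called means an adjusted p under 0.05 together with a difference of 1.5-fold or more, the fold the paper's methods give while naming no test for the arrays. Where a gene had several probe sets, the brightest on average stood for it. SDs are over the 3 rats of a group, and the number of arrays limits the precision. The fit was tested on simulated data.

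The members, the gene lists and the marker lists were chosen with earlier results of these data known. Named beyond the members were Apoc1, Apoc2 and Apoc4, and in each of CCl4 minus vehicle and CCl4+Rot minus CCl4 up to 8 listed genes with the largest change among those at least 1.5-fold, without overlap and called present on at least 3 arrays. The lists were other apolipoproteins, assembly and secretion, receptors and uptake, lipases with transfer and remodelling, and transcriptional regulators. The marker lists were hepatocyte, macrophage, myofibroblast and stellate cell, endothelium, cholangiocyte and small intestine. Samples with the same number in vehicle and the other groups were checked for pairing: their deviations from the group means correlated at r = 0.020, 0.035 and 0.068, so the numbers were not taken as pairs. Alternatives were other scalings (quantile, median, and, chosen after seeing the data, hepatocyte markers), filters on dim probe sets, trend and robust variances, only the groups compared, the methods' t-test, other fold thresholds, a replicate block with statmod 1.5.0, each array left out (with trend and robust variances also after seeing the data), and other probe set rules. Promoter windows came from RefSeq on GRCr8.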

Additional observations from a re-analysis of the deposited data

How the results depend on the processing

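Of the members' log2 changes under the alternatives, 573 kept their direction and side of the threshold, 23 changed sign and 4 passed the threshold. Of those 4, 3 are the calls of Apoa2, Apoa5 and Lcat without CCl4 rat 1, and 1 is Apoa4 in CCl4 minus vehicle by the methods' t-test without adjustment. Several alternatives could not change a direction, so the 573 overstates how far it was tried. Trend and robust variances, the methods' t-test and a fit of only the groups compared leave the log2 change as it is. So do leaving out an array of the group not compared and, for the 8 members with 1 probe set, other probe set rules. Changes of sign were of small values. In CCl4 minus vehicle, Apoa1 went to -0.27 with each array centred on its median, Apoe to 0.08 with quantile normalization and 0.02 relative to hepatocyte markers, and Mttp to 0.03 and 0.07. In CCl4+Rot minus CCl4, Apoa2 went to -0.01 with quantile normalization and -0.03 relative to hepatocyte markers, and Scarb1 to -0.02 relative to hepatocyte markers and -0.13 as the mean of its probe sets. In CCl4+Rot minus vehicle, Apoc3 went to 0.02 with quantile normalization and Apoe to -0.06 with median centring. Leaving out 1 array at a time gave -0.08 to 0.18 for Apoa1, -0.25 to 0.01 for Apoe and -0.31 to 0.05 for Mttp in CCl4 minus vehicle, and -0.13 to 0.07 for Apob, -0.06 to 0.04 for Apoc3 and -0.04 to 0.11 for Apoe in CCl4+Rot minus vehicle. Median centring, which removes the gap between mean array medians of 6.85 (vehicle) and 7.21 (CCl4), moved the members' median there from -0.26 to -0.62, in CCl4+Rot minus CCl4 from 0.21 to 0.45 and in CCl4+Rot minus vehicle from -0.07 to -0.18. Quantile normalization moved it to -0.15 in CCl4 minus vehicle and 0.08 in CCl4+Rot minus CCl4, and centring on hepatocyte markers to -0.10 and 0.03. The count of probe sets called was 0 in CCl4 minus vehicle, 1 in CCl4+Rot minus CCl4 and 8 in CCl4+Rot minus vehicle. In that order it was 4, 0 and 22 without the dimmest 30%, 78, 0 and 63 among those with 3 or more present calls, 348, 1 and 241 with trend and robust variances, and 1774, 851 and 2126 by the methods' t-test unadjusted (0 in each after Benjamini-Hochberg). In the latter pair of comparisons it was 0 and 3 with quantile normalization, 0 and 1 with only the groups compared and 0 and 1 relative to hepatocyte markers, and in CCl4+Rot minus vehicle 2 with median centring. With 1 array left out at a time the counts ran from 0 to 2 in CCl4+Rot minus CCl4 (2 without CCl4 rat 2, 0 without CCl4 rat 3) and from 0 to 24 in CCl4+Rot minus vehicle (24 without CCl4 rat 2). With trend and robust variances as well, the counts without vehicle rats 3, 4 and 5, CCl4 rats 1, 2 and 3 and CCl4+Rot rats 4, 5 and 6 in turn were 211, 29, 87, 843, 136, 313, 163, 154 and 252 in CCl4 minus vehicle and 281, 55, 58, 433, 362, 365, 96, 88 and 32 in CCl4+Rot minus vehicle, and from 1 to 11 (11 without CCl4 rat 3, 4 without vehicle rat 4, 2 without CCl4 rat 2) in CCl4+Rot minus CCl4. The causes were not tested. Probe sets near background, such as the second Apob probe set and that of Abcg8, limit what their values can show. The replicate block, with the rat number as a random effect, gave 0, 1 and 8 calls and changed no call. The deviations of the few same-numbered rats correlated at 0.020 to 0.068, inside the range of differently numbered rats (-0.16 to 0.21). So few pairs cannot exclude pairing, and the main fit did not use the numbers as pairs.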
